A study of Homo sapiens with 2 samples.

Results

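The 10 genes described here encode actins, tropomyosins, other contractile proteins and the transcription factor that controls many of them. They were taken by gene name from the deposited expression table: ACTB, ACTG1 and ACTA2 (actins), TPM1, TPM2 and TPM4 (tropomyosins), MYL9 (a myosin light chain), CNN1 (calponin), TAGLN (transgelin) and SRF (serum response factor). All 10 were found among 50868 genes. RNA sequencing had been done on 2 cultures labelled HepG2, a human liver cancer line widely used as a hepatocyte model. The parental culture was labelled WT and untreated. The resistant culture was labelled sorafenib resistance and had been selected with sorafenib, an oral kinase inhibitor given for liver cancer, starting at 2.5 µM and raised by 0.5 µM at a time until 7 µM was reached. Each group had 1 library, so no test of the conditions was possible. Differences cannot be set against a spread between cultures, and every interval below covers counting error only.

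Cells build filaments from actin, and tropomyosins lie along these filaments and set which myosins and other proteins may bind. Nonmuscle cells use the cytoplasmic actins beta and gamma, whereas ACTA2, CNN1 and TAGLN are best known from smooth muscle and from myofibroblasts. Serum response factor binds a short DNA element called the CArG box in the promoters of many of these genes, with cofactors of 2 families. The myocardin-related factors MRTFA and MRTFB are held back by free actin monomers and released when filaments form, and the ternary complex factors, such as ELK1, respond to the ERK kinases.

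None of the 10 genes differed between the libraries by the size rule used here, a log2 ratio no nearer to 0 than 1 in either direction. The log2 ratio is that of resistant over parental CPM (a gene's counts relative to the library total, scaled with trimmed mean of M values factors) with 1 CPM added to each. Of 14686 measured genes 2.30% were past this size, 1.31% in the positive and 0.994% in the negative direction. Genes count as measured here if 1 CPM or more was reached in either library. Of the 10 genes 9 were measured, all of them with over 1 CPM in both libraries, and CNN1 had no counts. Their log2 ratios ran from -0.18 for TPM1 to 0.83 for TAGLN with a median of 0.19, beside a median of -0.0018 over all measured genes. The ratio was positive for 8 of the 9, against 49.7% of measured genes. The counting interval of the ratio lay above 1 for 7 of the 9 and below 1 for TPM1 alone. At this depth an interval above 1 was found for 21.1% of all measured genes and 1 below for 21.2%, 42.2% in all, so an interval off 1 is common in these libraries. Together the 10 genes took 57751 counts (0.320% of the parental library) and 63189 counts (0.376% of the resistant library).

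Library totals were 18067146 counts in the parental library and 16811907 in the resistant one. For a gene without counts a level of up to 3 counts was taken as possible. These equal 0.166 CPM in the former and 0.179 CPM in the latter. Of 8 hepatocyte markers, 7 (ALB, AFP, TTR, SERPINA1, APOA1, APOB and FGB) had no counts in either library, and HNF4A had 2 in each, which goes against the labelled line. The names parental and resistant therefore stand for the libraries so labelled. Of 5 genes that mark smooth muscle (MYH11, DES, LMOD1, ACTG2 and MYOCD), MYOCD was highest at 1.16 and 1.13 CPM, and their summed parental level was 2.54 CPM and the summed resistant one 2.68 CPM. The 8 fibroblast markers summed to 422 and 437 CPM, with COL1A2 and PDGFRA at 0 counts in both. The 4 endothelial markers summed to 33 and 79 counts, of which CDH5 had 20 and 72, and the 3 leukocyte markers to 7 and 5. Of the 6 fibroblast markers with counts, COL3A1 was at 0.896-fold (0.855 to 0.939). The other 5 lay between 1.10-fold (1.04 to 1.16) for COL1A1 and 2.51-fold (1.96 to 3.24) for LUM. The part of other cell types in the values of ACTA2 and TAGLN was not tested.

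Promoter windows show which of the genes carry a CArG box close to a transcription start. RefSeq windows on build GRCh38.p14, from 250 bases before to 50 bases after a start, were available for 7 of the 10 genes with 12 windows in all; ACTB, MYL9 and TAGLN had no entry. A CArG box, searched on both strands of each window, was found in 3 of these windows, those of ACTG1, TPM4 and SRF. Among all 35116 windows of the same length 1.29% held one. The 4 windows below are printed 5′ to 3′ on the strand of the gene because they hold the boxes, which are in capitals. The first is ACTG1 (chr17:81512750-81513049, minus strand), the next TPM4 (chr19:16067288-16067587, plus strand, the upstream one of 3 windows of the gene), then SRF (chr6:43171019-43171318, plus strand, the upstream one of 2 windows). The last is the downstream one of 2 windows of ACTA2 (chr10:88952724-88953023, minus strand), in which the capitals mark the looser form described after it.
ACTG1: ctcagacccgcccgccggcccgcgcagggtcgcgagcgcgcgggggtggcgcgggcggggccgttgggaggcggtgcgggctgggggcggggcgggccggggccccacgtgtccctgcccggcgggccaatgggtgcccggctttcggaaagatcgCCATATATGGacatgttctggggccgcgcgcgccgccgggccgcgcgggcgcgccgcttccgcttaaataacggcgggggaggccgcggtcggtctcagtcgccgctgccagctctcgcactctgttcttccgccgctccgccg
TPM4: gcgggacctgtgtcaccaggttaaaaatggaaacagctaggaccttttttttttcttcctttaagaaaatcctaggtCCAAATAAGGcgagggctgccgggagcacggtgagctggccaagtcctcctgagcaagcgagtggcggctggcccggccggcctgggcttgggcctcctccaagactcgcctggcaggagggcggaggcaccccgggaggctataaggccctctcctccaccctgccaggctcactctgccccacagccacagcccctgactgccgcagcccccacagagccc
SRF: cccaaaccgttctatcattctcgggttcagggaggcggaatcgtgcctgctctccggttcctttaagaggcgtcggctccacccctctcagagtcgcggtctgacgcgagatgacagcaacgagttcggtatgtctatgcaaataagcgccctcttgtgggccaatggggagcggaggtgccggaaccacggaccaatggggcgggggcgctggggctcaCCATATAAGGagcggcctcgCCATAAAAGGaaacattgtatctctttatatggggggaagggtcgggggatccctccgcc
ACTA2: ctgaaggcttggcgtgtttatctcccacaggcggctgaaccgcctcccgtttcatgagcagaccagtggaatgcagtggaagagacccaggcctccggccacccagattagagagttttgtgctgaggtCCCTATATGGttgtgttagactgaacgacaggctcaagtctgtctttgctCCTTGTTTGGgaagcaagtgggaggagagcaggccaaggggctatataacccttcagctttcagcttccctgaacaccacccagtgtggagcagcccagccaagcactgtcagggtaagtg

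The ACTG1 box, CCATATATGG, starts 94 bases before the transcription start, and the TPM4 box, CCAAATAAGG, 173 bases before it. SRF carries a pair of boxes, CCATATAAGG at 30 bases and CCATAAAAGG at 10 bases before its own start. The ACTA2 window has no full match, but holds 2 elements with a single G or C among the 6 central A or T bases, CCCTATATGG and CCTTGTTTGG, at 121 and 71 bases before the start. Counting that looser form with the full one, 8.13% of all windows held at least 1. The element GGAATG, read on both strands as the core bound by TEAD factors, occurred in 1 of the 12 windows, that of ACTA2, and in 14.0% of all windows. A match in letters describes the window and does not show that a factor was bound in these cells, and the absence of one says only that the letters are not in these bases.

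ACTB, the gene of cytoplasmic beta-actin (ENSG00000075624; chromosome 7, 5527151 to 5563784, minus strand of GRCh38, the build of all gene positions here), had 26891 counts in the parental library and 30392 in the resistant one. Its share of all counts was 0.149% (95% Wilson interval 0.147 to 0.151) in the parental and 0.181% (0.179 to 0.183) in the resistant library. It was among the most abundant genes of both, at rank 34 and rank 24 by count. In CPM it stood at 1484 and 1813, 1.22-fold the parental level (95% counting interval 1.20 to 1.24), with a log2 ratio of 0.29. That interval is narrow because the counts are many, yet 14.5% of measured genes had a higher ratio. ACTB is widely used as a reference gene in quantitative PCR, and in these libraries its CPM was not equal.

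ACTG1, the gene of cytoplasmic gamma-actin (ENSG00000184009; chromosome 17, 81509971 to 81523847, minus strand), had 10370 counts in the parental library and 10638 in the resistant one. Its level was 572 and 635 CPM, 1.11-fold (1.08 to 1.14), a log2 ratio of 0.15 that lies within the middle 50% of measured genes, -0.15 to 0.16. Among genes with 100 CPM or more in either library the middle 50% was narrower, -0.11 to 0.11, and ACTG1 lay above it. Both cytoplasmic actins were thus higher in the resistant library, ACTB by the larger factor. Within each library, where scaling plays no part, ACTB had 2.59 times the counts of ACTG1 in the parental and 2.86 times in the resistant library. The second ratio was 1.10 times the first (1.07 to 1.14). The coding sequences of the pair are 91.3% identical over 1125 aligned bases of the GENCODE 29 transcripts, with at most 59 identical bases in a row. No source used here gives the read length, so how reads of the pair were divided cannot be checked. Rows named as pseudogenes of the pair held few counts. The 10 rows named as ACTB pseudogenes summed to 13 parental and 15 resistant counts, and the 20 named as ACTG1 pseudogenes to 36 and 39. Related sequences under other names were not sought.

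**Figure D1:**
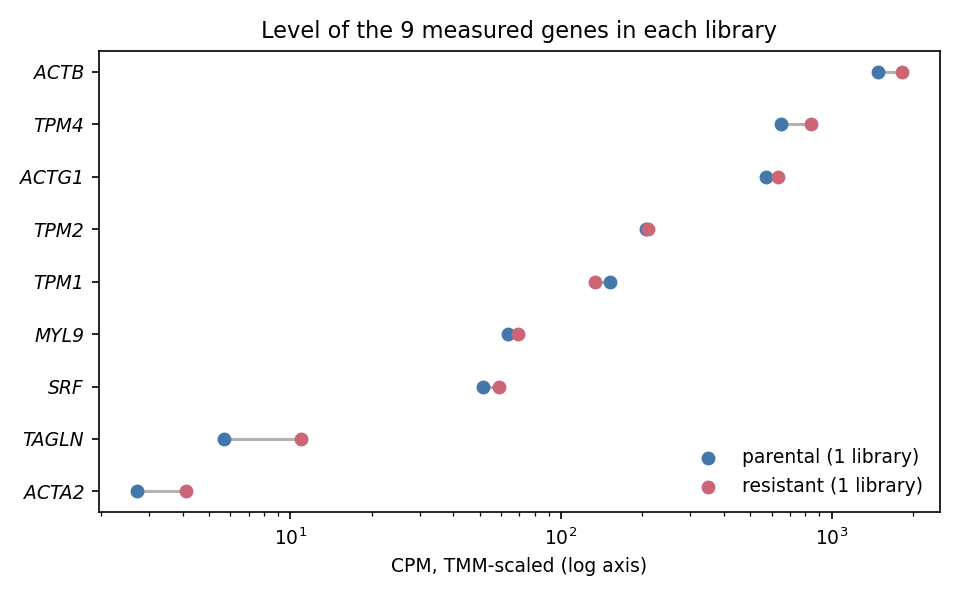
Level of each measured gene in CPM (TMM-scaled, log axis) in the parental (blue) and resistant (red) library, 1 library each; CNN1, with no counts, is left out. The 2 points of a gene lie close together, and only TPM1 is lower in the resistant library, at 133 against 151 CPM.

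ACTA2, the gene of smooth muscle alpha-actin and a customary marker of myofibroblasts (ENSG00000107796; chromosome 10, 88935074 to 88991390, minus strand), had 49 counts in the parental library and 69 in the resistant one. These are 2.70 and 4.12 CPM, 1.52-fold (1.04 to 2.24), with a log2 ratio of 0.47 that 7.33% of measured genes exceeded. Of all counts on the 6 actin genes, ACTA2 took 0.129% (95% Wilson interval 0.0978 to 0.171) and 0.166% (0.131 to 0.210), intervals that overlap. On the opposite strand, 380 of the 2976 merged exon bases of ACTA2 are shared with FAS, the death receptor gene, which had 115 counts in the parental library and 234 in the resistant one. A further 516 bases are shared with ACTA2-AS1, at 5 and 4 counts. Whether the counting used strand is not given, so reads from the shared stretches cannot be told apart, and the sum of the 3 genes had a log2 ratio of 0.90.

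TPM4, the tropomyosin gene with the most counts (ENSG00000167460; chromosome 19, 16067021 to 16103005, plus strand), had 11776 counts in the parental library and 14020 in the resistant one. Its level was 650 and 836 CPM, 1.29-fold (1.26 to 1.32), with a log2 ratio of 0.36. A higher ratio was found for 10.6% of measured genes. TPM1 (ENSG00000140416; chromosome 15, 63042632 to 63071915, plus strand), whose products include the long tropomyosins of stress fibres and of muscle, went the other way with 2738 and 2229 counts. At 151 and 133 CPM its resistant level was 0.880-fold the parental one (0.832 to 0.931), and its log2 ratio was -0.18, which 21.6% of measured genes lay below. TPM2 (ENSG00000198467; chromosome 9, 35681992 to 35691020, minus strand) had 3736 and 3506 counts, or 206 and 209 CPM. It was the 1 measured gene of the 10 whose interval included 1, at 1.01-fold (0.968 to 1.06). TPM3, which completes the family and is not among the 10, had 3804 and 3153 counts and was at 0.896-fold (0.854 to 0.940).

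The tropomyosin genes therefore differed in their proportions within a library, a comparison that needs no scaling between libraries. TPM4 had 4.30 times the counts of TPM1 in the parental and 6.29 times in the resistant library, and the ratio of these values was 1.46 (1.38 to 1.55). Against TPM3 the same ratio of ratios was 1.44 (1.36 to 1.51), and against TPM2 it was 1.27 (1.20 to 1.34). Of the counts on all 4 tropomyosin genes, TPM4 took 53.4% (95% Wilson interval 52.7 to 54.1) in the parental and 61.2% (60.6 to 61.8) in the resistant library. TPM1 took 12.4% (12.0 to 12.9) and 9.73% (9.35 to 10.1). In the deposited FPKM, counts per length and library total, the TPM4 share was 55.2% and 61.9%, and per kilobase of merged exons it was 42.9% and 49.9%. The size of the share depends on the length used. Its direction does not, since a length divides both libraries alike and TPM4 had the highest ratio of the 4 genes, so the scales are no independent evidence of it. On the opposite strand TPM1 shares exon bases with TPM1-AS, at 5 and 1 counts, and TPM4 with AC008894.3, at 13 and 22 counts.

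**Figure D2:**
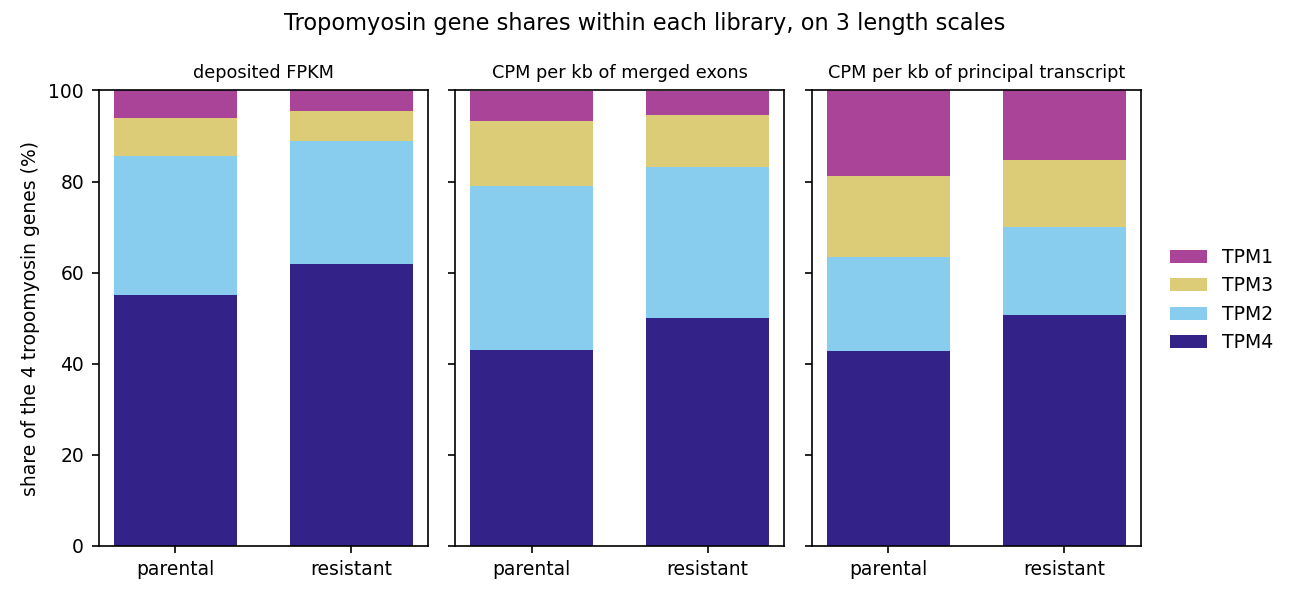
Share (%) of the 4 tropomyosin genes in their summed level in the parental and resistant library, in the deposited FPKM and per kilobase of merged exons or of the principal transcript. The TPM4 part of the parental library is 55.2% in the first panel and 42.7% in the last, where it is 50.6% in the resistant library; the panels differ in the lengths used and cannot differ in direction for TPM4.

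MYL9 encodes a regulatory light chain of nonmuscle and smooth muscle myosin, whose phosphorylation switches contraction on. The gene (ENSG00000101335; chromosome 20, 36541484 to 36551447, plus strand) had 1155 counts in the parental library and 1167 in the resistant one. Its level was 63.7 and 69.6 CPM, 1.09-fold (1.01 to 1.19), and its log2 ratio of 0.13 lies within the middle 50% of measured genes. MYH9, the main heavy chain of nonmuscle myosin in many cells, was similar in size at 1.13-fold (1.10 to 1.15) with 12101 and 12602 counts.

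TAGLN, which encodes the actin-binding protein transgelin or SM22 (ENSG00000149591; chromosome 11, 117199321 to 117204782, plus strand), had the highest ratio of the 10. It had 103 counts in the parental library and 183 in the resistant one, or 5.68 and 10.9 CPM. That is 1.92-fold (1.50 to 2.47) with a log2 ratio of 0.83, and 302 measured genes (2.06%) had a higher one. The authors' deposited table gives TAGLN a log2 fold change of 0.93 with a q-value of 0.0223 and called it neither UP nor DOWN. That value compares the same 2 libraries and not the conditions. Exons of PCSK7, a proprotein convertase gene, lie on the opposite strand and share 446 of its 3917 merged exon bases. PCSK7 had 1134 and 957 counts, many more than TAGLN, and the sum of both genes had a log2 ratio of -0.0054. How far reads of the shared stretch entered the TAGLN counts was not tested.

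CNN1, the gene of basic calponin, an actin-binding protein of smooth muscle (ENSG00000130176; chromosome 19, 11538717 to 11550323, plus strand), had 0 counts in both libraries. A count of 0 leaves room for a level of at most 0.166 CPM (parental) and 0.179 CPM (resistant). No fold can be given. ACTA2 and TAGLN, its companions among smooth muscle markers, were thus low and CNN1 was not detected, while the shared cytoskeletal genes ACTB, ACTG1, TPM4 and TPM2 were abundant.

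SRF itself (ENSG00000112658; chromosome 6, 43171299 to 43181507, plus strand) had 933 counts in the parental library and 985 in the resistant one. Its level was 51.5 and 58.8 CPM, 1.14-fold (1.04 to 1.25), with a log2 ratio of 0.19 exceeded by 21.9% of measured genes. The cofactor gene MRTFA was at 1.10-fold (1.01 to 1.21) with 964 and 985 counts, and MRTFB at 0.916-fold (0.849 to 0.989) with 1471 and 1247. MYOCD, the muscle cofactor myocardin, had 21 and 19 counts, and ELK1 was at 0.935-fold (0.872 to 1.002). Of 8 genes listed as SRF and its partners all were measured, with 3 positive and 5 negative log2 ratios, and none was past the size rule. SCAI, which encodes a suppressor of MRTF activity, had the largest difference of that list with a log2 ratio of -0.34, and it shares exons on the same strand with GOLGA1. The sum of SCAI and GOLGA1 was at -0.12.

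**Figure D3:**
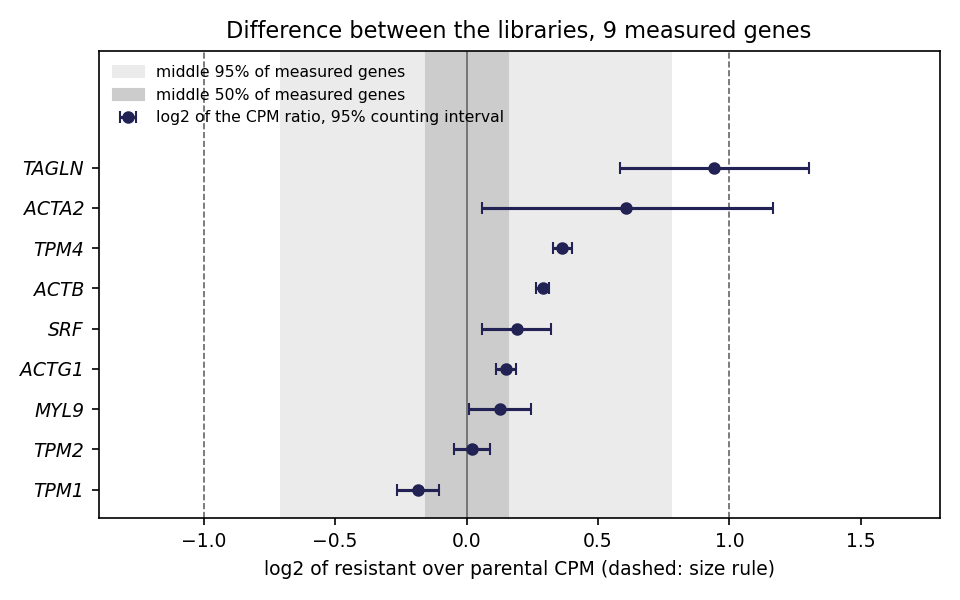
Log2 of resistant over parental CPM for the 9 measured genes (points) with 95% counting intervals (bars), over the range of the middle 50% (dark band, -0.15 to 0.16) and middle 95% (light band, -0.71 to 0.78) of all measured genes; the bands use 1 CPM added to each level, and dashed lines are the size rule. No point passes a dashed line, and TAGLN and ACTA2 have the widest intervals.

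The order of the genes by level depends on the length used. The deposited FPKM divides a gene's count by the library total and by a constant. For 85.6% of 12447 genes with over 50 parental counts that constant equals, within 2 bases, the summed length of all distinct annotated exons, with overlapping exons counted again. The match held for MYL9, SRF and TAGLN, 3 of the 9 measured genes; for the other 6 the constant differed from the GENCODE 29 sum, as for ACTB with 8835 against 10889 bases and TPM4 with 11465 against 26863 bases. The principal transcripts of ACTB have a median length of 1812 bases. For TPM1 the constant was 24793 bases, against a median of 1049 bases for its principal transcripts. Genes with many annotated exon variants therefore have a low deposited FPKM for their counts.

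In the deposited FPKM the parental order was ACTB at 168, TPM4 at 56.9, ACTG1 at 40.6, TPM2 at 31.3, MYL9 at 17.6, SRF at 12.3 and TPM1 at 6.11. TAGLN at 0.644 and ACTA2 at 0.610 stood last of the measured genes, close to each other. In the resistant library the order was the same, with ACTB at 205, TPM4 at 72.7, ACTG1 at 44.7, TPM2 at 31.6, MYL9 at 19.1, SRF at 13.9 and TPM1 at 5.35, then TAGLN at 1.23 and ACTA2 at 0.923. Per kilobase of merged exons ACTG1 (191) passed TPM4 (75.3) in the parental library, and TPM1 (11.7) came next to SRF (12.3). Per kilobase of the principal transcript TPM1 (144) stood just under TPM2 (160), and TPM4 (329) was again above ACTG1 (292). ACTB was highest and ACTA2 the lowest of the measured genes on each scale, while the places of TPM4, ACTG1 and TPM1 changed.

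**Figure D4:**
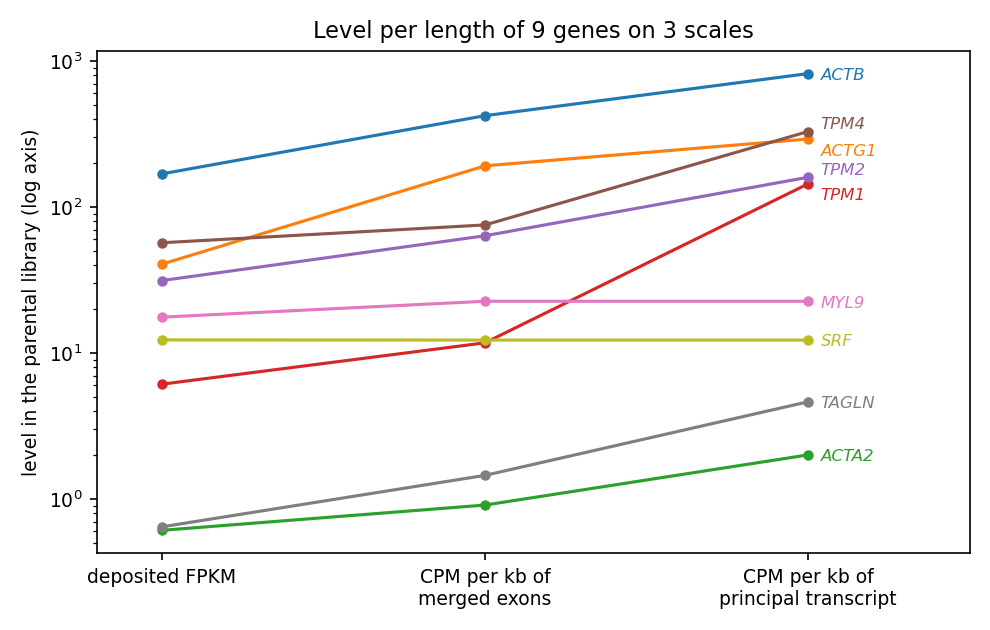
Level of the 9 measured genes in the parental library (log axis) in the deposited FPKM, in CPM per kilobase of merged exons and in CPM per kilobase of the principal transcript. The line of TPM1 climbs from 6.11 to 144 and crosses those of MYL9 and SRF.

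The wider actin pathway was described from 12 lists with 130 distinct genes, the 10 above included, of which 112 were measured. Of these 3 (2.68%) were past the size rule, all higher in the resistant library, against 2.30% of measured genes. These were CCN1, CCN2 and FLNC. The median log2 ratio of the 112 was 0.06, beside -0.0018 over all measured genes, and 67 were positive. These include the 9 measured genes of the 10, of which 8 were positive. Among all measured genes 49.7% were positive, the share to set beside each list count below.

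SRF targets that respond to MRTF cofactors formed a list of 23, all 10 genes above included. Of its 22 measured genes 18 were positive and 4 negative, against 49.7% positive among all measured genes, and the median was 0.16. Of those 18, 8 are among the 10 genes. The 13 genes outside the 10 were all measured, and 10 of them were positive with a median of 0.15. CCN1 and CCN2, matricellular growth factor genes that YAP and TAZ also drive, were past the size rule with log2 ratios of 1.78 and 1.41, and so stood well above the structural genes of the list. CCN1 had 2473 counts in the parental library and 7919 in the resistant one, and CCN2 had 370 and 940. By log2 ratio ZYX, the gene of the focal adhesion protein zyxin, came next after TAGLN at 0.53, ahead of ACTA2 at 0.47. ZYX had 1371 and 1839 counts, 1.45-fold (1.35 to 1.56), which is below the 1.52-fold of ACTA2. FLNA, which encodes the main actin crosslinker filamin A, was at 1.09-fold (1.07 to 1.11), and VCL, the vinculin gene, at 1.11-fold (1.07 to 1.15); VCL shares 1109 of its 9992 merged exon bases with AP3M1 on the opposite strand. SRF targets that respond to ternary complex factors had 7 measured genes of 10, of which 4 were positive and 3 negative, none past the size rule, with a median of 0.11. Among them IER2 was at 1.24-fold (1.14 to 1.35) and FOS at 1.22-fold (1.02 to 1.46). JUNB, which shares 259 of its 1820 merged exon bases with HOOK2 on the opposite strand, was at 0.779-fold (0.742 to 0.817) and NR4A1 at 0.690-fold (0.611 to 0.779).

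Of 18 genes for monomer binding and formins 16 were measured, 8 positive and 8 negative, with a median of 0.03. CAP1, a cyclase-associated protein gene that helps recycle actin, was at 1.58-fold (1.50 to 1.67), the formin gene DAAM1 at 1.55-fold (1.40 to 1.70) and the profilin gene PFN2 at 1.51-fold (1.42 to 1.60). The formin gene FMNL3 was at 0.691-fold (0.554 to 0.859). On the opposite strand CAP1 shares exon bases with PPT1, at 7023 and 5312 counts, and FMNL3 with PRPF40B, at 368 and 344 counts. The Arp2/3 complex, which branches filaments, and its activators had 13 measured genes of 14, 7 positive and 6 negative, with a median of 0.02. ARPC4, one of its subunit genes, was lowest at 0.628-fold (0.582 to 0.677), and shares same-strand exons with the readthrough gene ARPC4-TTLL3; summed with it the log2 ratio was -0.61. On the opposite strand ARPC4 shares 479 of its 3608 merged exon bases with TADA3, at 1021 and 1028 counts. The activator gene CTTN was at 0.760-fold (0.725 to 0.797). Both actin assembly lists were thus split near evenly and had no gene past the size rule.

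Crosslinking, capping and severing genes had 18 measured of 20, of which 12 were positive, with a median of 0.05. FLNC, the filamin gene of muscle, was past the size rule with 71 counts in the parental library and 181 in the resistant one, 2.76-fold (2.08 to 3.68) and a log2 ratio of 1.26. It was no longer past the rule with 5 CPM added, at 0.82, or with the deposited FPKM, at 0.54. TMOD1, a gene of a protein that caps the slow end of filaments, was at 0.709-fold (0.620 to 0.809), and 1669 of its 3708 merged exon bases are shared with TSTD2 on the opposite strand. In the focal adhesion plaque all 19 genes were measured, 13 were positive and none was past the size rule. PDLIM5, an adaptor gene with PDZ and LIM domains, came closest with 648 and 1163 counts, 1.94-fold (1.76 to 2.14) and a log2 ratio of 0.94. Its relative PDLIM7 was at 0.761-fold (0.701 to 0.827). In the list of nonmuscle myosin II and its regulators, MYL9 included, 7 of 12 measured genes were positive and the median was 0.13. MYH10 was lowest at 0.669-fold (0.632 to 0.708). The smooth muscle contractile list had 10 measured genes of 16, of which 7 were positive and none was past the size rule. It holds 6 of the 10 genes above, and of its 5 measured genes outside them 3 were positive. SYNM, an intermediate filament gene, was at 0.752-fold (0.694 to 0.815) there, and MYLK, the myosin light chain kinase gene, at 1.24-fold (1.03 to 1.50).

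**Figure D5:**
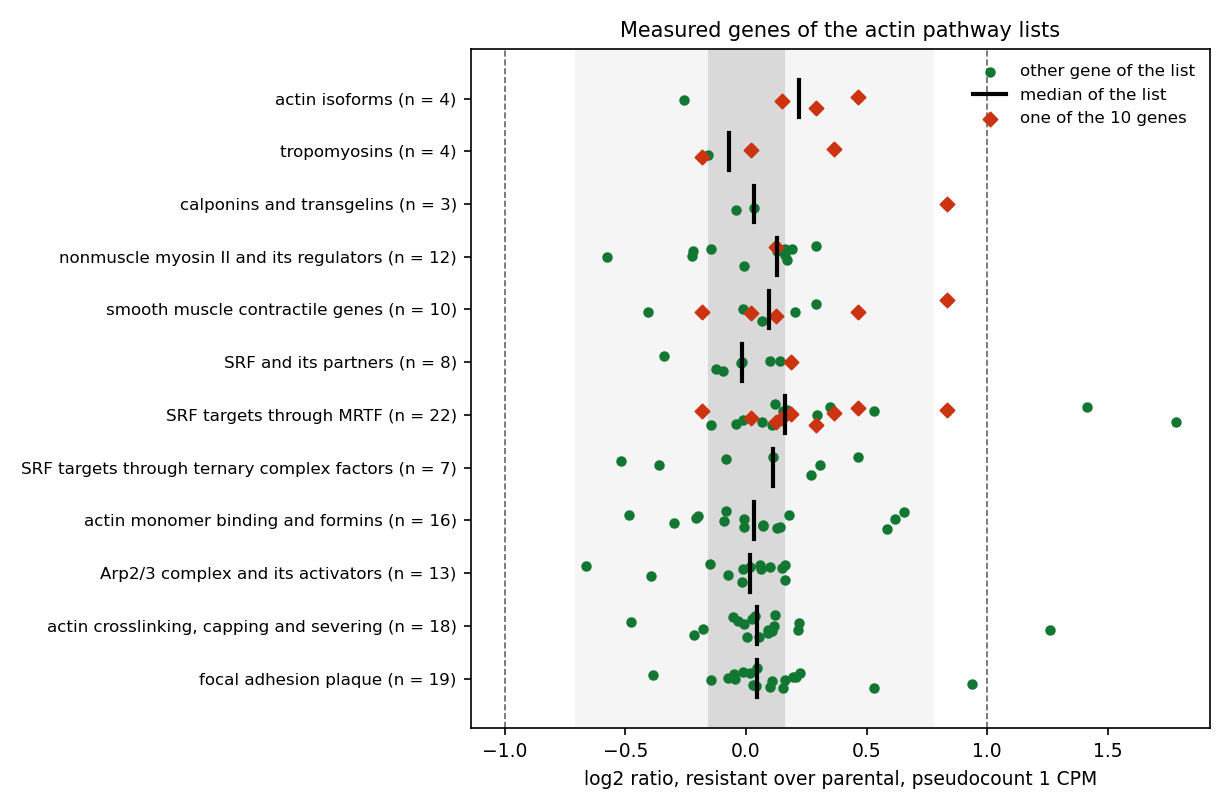
Log2 ratio (resistant over parental, 1 CPM added) of the measured genes in 12 lists of the actin pathway, with the 10 genes as diamonds, other genes as dots and the list median as a bar; bands are the middle 50% and 95% of all measured genes, and dashed lines the size rule. The list medians lie between -0.07 and 0.22, and 3 genes (CCN1, CCN2 and FLNC) lie beyond the right dashed line.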

How the data were processed

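Messenger RNA libraries of 1 parental and 1 resistant culture were compared, grouped by the treatment and genotype labels. The deposited tables hold whole-number counts and FPKM per gene, per the file headers. Per the submitters' processing notes bcl2fastq 2.19, HISAT2 2.0.4, StringTie 1.3.0 and build GRCh38 were used; the sources used here do not give the annotation release, strand or counting settings. A deposited comparison table gives the authors' log2 fold change, p-value and q-value for 1 library against 1, by a test that is not given, and these were not used as evidence.

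Counts were scaled to CPM with TMM factors (1.00 parental, 0.997 resistant) computed by edgeR 4.0.16 under R 4.3.3, and no count model was fitted. Folds are ratios of CPM with exact Clopper-Pearson 95% intervals given the summed count; shares have Wilson intervals, and ratios of ratios a normal interval on the log scale. Intervals cover counting error only, and PCR copies are not independent molecules. Exons, merged lengths and principal transcripts came from GENCODE 29, promoters from RefSeq. The calculation was run on simulated counts that hold counting error only, which checks the code and says nothing of the spread between cultures. Named genes are the 10, up to 4 per list with the largest absolute log2 ratio among those with at least 10 CPM in a library, any listed gene past the size rule, and 8 reference genes; GOLGA1, FAS, PPT1, PCSK7, TSTD2, PRPF40B, TADA3, AP3M1, HOOK2, TPM1-AS, AC008894.3, ACTA2-AS1 and ARPC4-TTLL3 were named because their exons overlap. The members and lists were chosen with earlier results of these data known. No genes of like pattern were sought, since over 2 libraries any pair correlates fully. Protein identity was not computed. One further gene list is not reported here. Alternatives were other scalings, pseudocounts, filters, deposited FPKM and sums over named pseudogenes or overlapping genes.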

Additional observations from a re-analysis of the deposited data

How the results depend on the processing

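With 1 library per group, depth and the lack of replicates limit every value, most of all ACTA2 and TAGLN. No paired analysis was possible because each group has 1 library and the libraries share only a number. Over 11 alternatives none of the 10 genes passed the size rule, and their median log2 ratio lay between 0.15 and 0.19. Of all 14686 measured genes 338 (2.30%) were past the rule. The number was 146 with the deposited FPKM, 746 with a pseudocount of 0.1 CPM and 151 with 5 CPM. Of the 10403 genes with a larger CPM of at least 10, 207 (1.99%) were past the rule. Of the genes in the pathway lists, 2 were past it with the deposited FPKM and 2 with 5 CPM, against 3; FLNC was the gene lost in both. Other scalings, pseudocounts and the deposited FPKM moved ACTA2 between 0.24 and 0.59 and TAGLN between 0.44 and 0.93, and turned no sign among the 10. The sums with genes on the opposite strand and the other length scales were chosen after seeing the data. That sum put TAGLN at -0.0054 and ACTA2 at 0.90. It adds all counts of the overlapping genes, mostly PCSK7 and FAS, and not those of the shared stretches alone. Summing with same-strand genes changed nothing among the 10, since none shares exons with one. The list medians of calponins and transgelins and of Arp2/3 genes turned sign in 1 alternative each, with values down to -0.0042 and -0.0016.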

Other observations

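Genes of the same families outside the 10 are given here, with ACTG2, ACTA1, CNN3 and TAGLN3 named after their values were seen. ACTC1, the cardiac actin gene, had 583 parental and 449 resistant counts and was at 0.833-fold (0.734 to 0.943). ACTG2, the enteric smooth muscle actin gene, had 1 and 14 counts, a ratio of 15.1 with a counting interval from 2.30 to 640, and ACTA1, the skeletal actin gene, had 3 and 0. Of the other calponin genes, CNN2 was at 0.970-fold (0.889 to 1.06), and CNN3 had 4 and 0 counts. TAGLN2, the widely expressed transgelin gene, was at 1.02-fold (0.986 to 1.06) with 5388 and 5105 counts, and TAGLN3 had none. The heavy chains of nonmuscle myosin differed in direction, with MYH9 at 1.13-fold (1.10 to 1.15) and MYH10 at 0.669-fold (0.632 to 0.708).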
